A study of Persea americana and Macadamia integrifolia and Mangifera indica with 6 samples.

Results

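miR171 is a conserved plant microRNA family that directs cleavage of transcripts of GRAS transcription factors, in Arabidopsis the HAIRY MERISTEM (HAM) genes, also called SCL6 or LOST MERISTEMS. These GRAS proteins maintain undifferentiated cells in the shoot meristem, and the miR171 module is also known for roles in shoot branching, trichome formation and chlorophyll synthesis in Arabidopsis. In Arabidopsis HAM proteins bind miR156-targeted SPL9 proteins and reduce their activity, which links miR171 to the age pathway that this study followed from juvenile to flowering trees.

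The miR171 values were all rows named miR171 in the table of small RNA abundance, 7 of 123 miRBase entries. The 7 entries held only 2 distinct sets of values, out of 53 in the whole table, because miRBase lists one mature sequence under several names and each name carries the same reads. The first is the sequence of the Arabidopsis entries miR171b-3p and miR171c-3p, and the second is that of the 5 rice entries miR171b, miR171c-3p, miR171d-3p, miR171e-3p and miR171f-3p. They are called the Arabidopsis sequence and the rice sequence here, after the species of the reference and not of the tree. In miRBase these mature sequences cover largely the same stretch of the miR171 arm but begin at different bases. The family value is the sum of both sequences, and no entry of the opposite arm was listed.

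Small RNA was sequenced from youngest fully expanded leaves of avocado (Persea americana, cultivar Hass), macadamia (cultivar HAES741) and mango (cultivar Kensington Pride), with 1 library of juvenile leaves and 1 of mature leaves per species. Juvenile leaves came from seedlings of 1 month, raised in a nursery (avocado) or a glasshouse (macadamia and mango). Mature leaves came from field trees in flower, 10 years old in avocado and macadamia and 5 years old in mango. The mature avocado trees were grafted and the mature mango trees were seedlings, and for the mature macadamia trees this is not stated. Seedling leaves came from the primary unbranched shoot, and field trees were sampled at many positions on each tree. Age, growing site, leaf position and, at least in avocado, grafting therefore cannot be told apart. Leaves of several plants were pooled, and the sources used here do not name the pool that was sequenced. The listed miRNAs include no marker of a tissue, so the leaf label was not checked.

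Values are RPM, reads scaled to the total of 20 to 24 nt reads of the library. The lowest depth at which all values of a library become whole reads was 1141472 for juvenile mango, the shallowest, and 7509125 for mature avocado, the deepest. A whole multiple of these depths would give whole reads too. Listed miRNAs took 5.54% to 16.6% of the reads. With 1 library per species and age there was no replicate error, and the 95% exact (Clopper-Pearson) intervals below reflect counting alone. Reads copied by PCR do not count separate molecules, so these intervals can be too narrow.

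miR171 was more abundant in both avocado libraries than in any macadamia or mango library. It stood at 1159 RPM in juvenile avocado leaves (5337 reads) and 2319 RPM in mature avocado leaves (17416 reads). In macadamia it was 248 RPM in juvenile leaves (1788 reads) and 30.9 RPM in mature leaves (53 reads). In mango it was 228 RPM in juvenile leaves (260 reads) and 43.4 RPM in mature leaves (196 reads). The order of the 6 levels was thus both avocado libraries, the juvenile macadamia and mango libraries, and then the mature mango and macadamia libraries. Only reads that match the listed Arabidopsis and rice references are counted. Whether these references match the miR171 of each tree species equally well was not tested.

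Neighbours in this order differed unequally. Juvenile macadamia exceeded juvenile mango by only 1.09-fold, with an interval of 0.955 to 1.24 that includes no difference. Mature mango exceeded mature macadamia 1.41-fold (1.03 to 1.94), on 196 and 53 reads. The other neighbours were at least 2.002-fold apart, the smallest of these gaps being that of the avocado ages (1.94 to 2.06).

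The gap between species widened with age. Among juvenile libraries avocado held 4.68 times the miR171 level of macadamia (4.43 to 4.94) and 5.09 times that of mango (4.49 to 5.78). Among mature libraries it held 75.2 times that of macadamia (57.4 to 100.4) and 53.4 times that of mango (46.4 to 61.8). miR171 ranked 11th of 20 families in juvenile avocado and 6th in mature avocado, whereas it ranked 10th and 14th in juvenile and mature macadamia and 11th and 13th in mango. It made up 0.977% of the RPM of all listed sequences in juvenile avocado and 4.15% in mature avocado, against 0.328% and 0.0557% in macadamia and 0.293% and 0.0261% in mango.

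**Figure D1:**
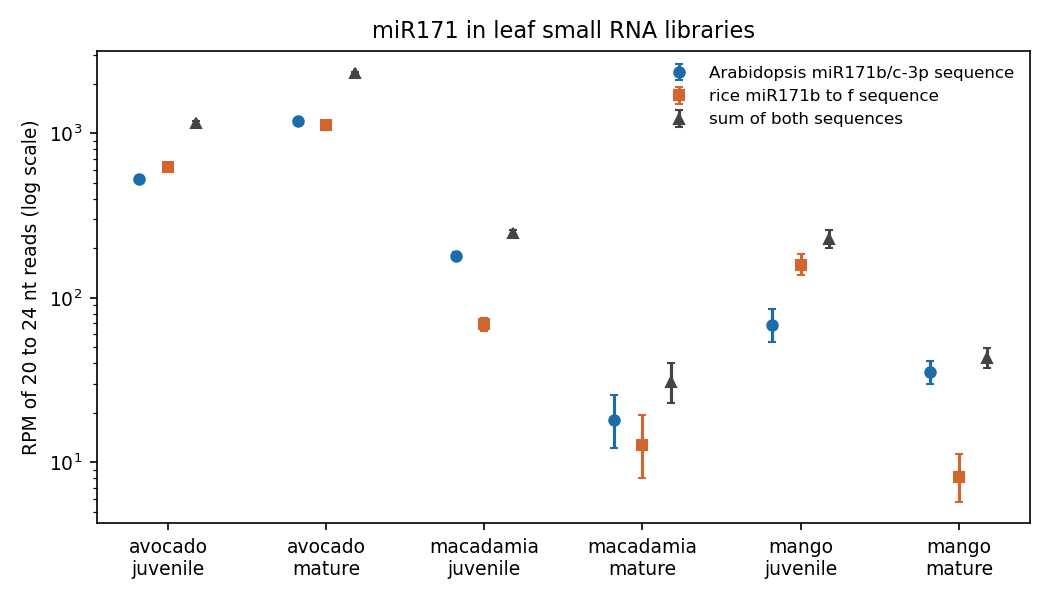
RPM of each miR171 sequence and of their sum in the 6 libraries, on a log axis, with exact 95% intervals that cover counting error. Both sequences stood at 531 RPM or more in each avocado library, and at 35.2 RPM or less in mature macadamia and mango.

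Both miR171 sequences were abundant in avocado, and there they stood at like levels. Juvenile avocado held 531 RPM of the Arabidopsis sequence and 627 RPM of the rice sequence, and mature avocado 1195 and 1125 RPM. In juvenile macadamia the Arabidopsis sequence led, at 179 against 69.0 RPM of the rice sequence. In mature macadamia it stood at 18.0 against 12.8 RPM, on 31 and 22 reads. The interval of its share there, 44.1 to 71.9%, includes an even split. In mango the leading sequence changed. The rice sequence was the higher one in juvenile mango, at 159 against 68.3 RPM, and the Arabidopsis sequence in mature mango, at 35.2 against 8.19 RPM.

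Among juvenile libraries the sequences therefore ordered macadamia and mango in opposite ways. The Arabidopsis sequence was 2.62-fold higher in juvenile macadamia than in juvenile mango (2.08 to 3.33), and the rice sequence was 2.31-fold higher in juvenile mango (1.94 to 2.74). The like family sums of these libraries thus held both sequences in different proportions. Among mature libraries the Arabidopsis sequence was 1.95-fold higher in mango than in macadamia (1.32 to 2.97). For the rice sequence, with 22 reads in mature macadamia and 37 in mature mango, the interval of macadamia over mango ran from 0.878 to 2.72.

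miR171 was higher in mature than in juvenile leaves of avocado and lower in mature leaves of macadamia and mango. The family ratio in avocado was 2.002 (1.94 to 2.06), a log2 ratio of 1.001 on the log2(RPM + 1) scale that lies at the 2-fold threshold itself. In macadamia miR171 was 8.03-fold lower in mature leaves (6.11 to 10.8) and in mango 5.25-fold lower (4.34 to 6.35), log2 ratios of -2.97 and -2.37. These were placed 3rd from the top of 15 families past 10 RPM in avocado, last of 18 in macadamia and 13th of 16 in mango. The last place in macadamia was shared in effect with miR157, which like miR156 targets SPL transcripts, at -2.96. At the 2-fold threshold miR171 was 1 of 3 families called higher in avocado (20% of those past the filter), 1 of 6 called lower in macadamia (33.3%) and 1 of 6 called lower in mango (37.5%).

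All families of a library share its scale, and in avocado most families were lower in mature leaves. Over the families past the filter, the median was -1.39 (avocado), -0.53 (macadamia) and -0.052 (mango) on the log2 scale. Relative to that median, the log2 ratio of miR171 became 2.39 for avocado, -2.43 for macadamia and -2.31 for mango, so its direction in each species was the same on both scales.

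The sequences did not shift by equal amounts. The Arabidopsis sequence was 2.25-fold higher in mature avocado (2.15 to 2.35), 9.91-fold lower in mature macadamia (6.94 to 14.6) and 1.94-fold lower in mature mango (1.46 to 2.56). The rice sequence was 1.79-fold higher in mature avocado (1.72 to 1.87), 5.39-fold lower in mature macadamia (3.52 to 8.68) and 19.5-fold lower in mature mango (13.6 to 28.5). Within each species both sequences went the same way, and the mango fold of the rice sequence rests on 37 reads in the mature library. The count of sequences at least 2-fold higher in mature avocado was 1 of 2, where 14.7% of the 34 distinct sequences past the filter were higher, and 0 of 2 were lower, where 50% were. In macadamia 2 of 2 were lower and 0 higher, where 32.4% and 5.88% of 34 were. In mango 1 of 2 was lower and 0 higher, where 31% and 37.9% of 29 were. The sequences that missed the threshold were the rice sequence in avocado (log2 ratio 0.84) and the Arabidopsis sequence in mango (-0.94), both just under the threshold.

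**Figure D2:**
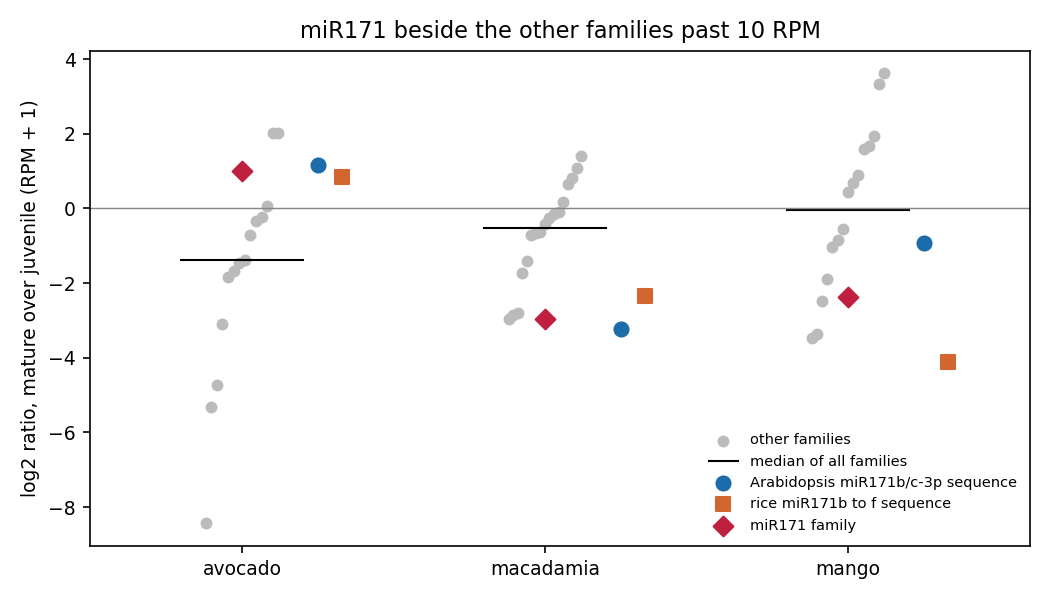
Log2 ratio of mature over juvenile leaves on RPM + 1 for every family past 10 RPM in a species (grey points), their median (black line), the miR171 family (red diamond) and its sequences (blue and orange). miR171 stood above the family median in avocado (1.001 against -1.39) and below it in macadamia (-2.97 against -0.53) and mango (-2.37 against -0.052).

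The balance between the miR171 sequences does not depend on the scale of a library, because both are counted in the same reads. The Arabidopsis sequence held 45.8% of miR171 reads in juvenile avocado (exact binomial interval 44.5 to 47.2%) and 51.5% in mature avocado (50.8 to 52.2%). In macadamia it held 72.1% in juvenile (70.0 to 74.2%) and 58.5% in mature leaves (44.1 to 71.9%). In mango its share was 30.0% in juvenile leaves (24.5 to 36.0%) and 81.1% in mature leaves (74.9 to 86.3%). The mango libraries held both the lowest and the highest share of the 6.

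The ratio of Arabidopsis to rice reads was 0.429 in juvenile and 4.30 in mature mango, an odds ratio of 9.97 (6.29 to 16.1). In avocado it moved from 0.847 to 1.06, an odds ratio of 1.25 (1.18 to 1.33). In macadamia it moved the other way, from 2.59 to 1.41, and the odds ratio of 0.544 had an interval of 0.302 to 0.997 that nearly reaches no shift. As a comparison, the 2 leading sequences of each family were taken from either arm. Some pairs, such as that of miR166 in mango, set one arm against the other. In mango the log2 ratios of the pair differed by a median of 1.56 over the 9 families with at least 2 sequences past 10 RPM, miR171 included. In miR171 they differed by 3.19. miR396, which targets GRF transcription factors, was the only one of these 9 families with a larger gap, 4.10. In avocado and macadamia the gap of miR171 was 0.33 and 0.90, beside medians of 0.46 and 0.47 over 11 families each.

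**Figure D3:**
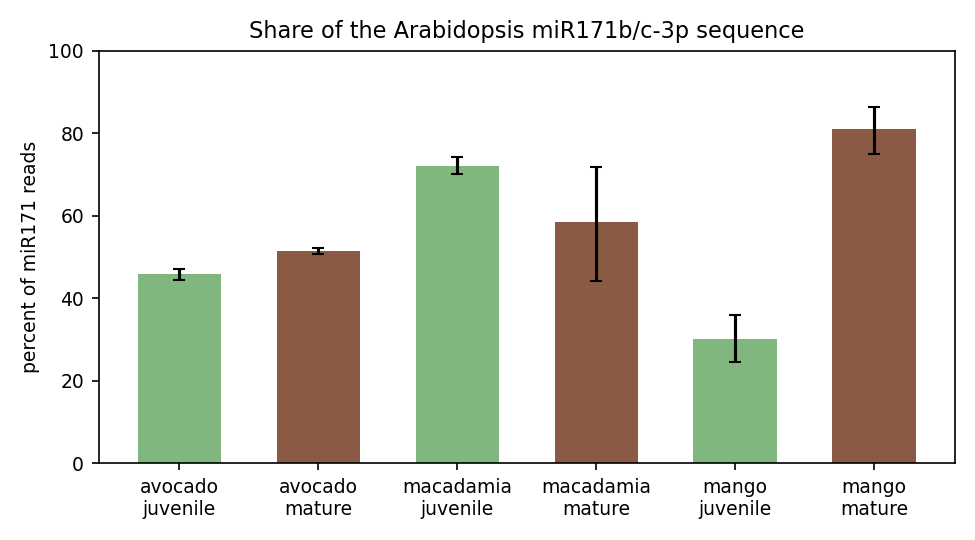
Percent of the miR171 reads of each library that carry the Arabidopsis sequence, juvenile libraries in green and mature libraries in brown, with exact binomial 95% intervals. The mango bars stand at 30.0% and 81.1%, and the avocado bars at 45.8% and 51.5%.

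Reads of miR171 in mature macadamia and mango were few beside those of mature avocado. The 53 reads in mature macadamia equal 0.304% of the 17416 reads in mature avocado, and the 196 reads in mature mango equal 1.13%. Whether any of these reads came over from the avocado library was not tested.

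Taking the 3 species as replicates, miR171 showed no shared age effect that passed the test. A limma fit of the log2(RPM + 1) values, blocked by species, estimated it at -1.44 on the log2 scale (standard error 0.91, 95% interval -3.30 to 0.42, adjusted p = 0.32 across 13 families that reached 10 RPM in each species). Of the 13 families, 2 were called lower (15.4%), miR156 and miR157. Over 10 settings with families the miR156 call held in 4 and the miR157 call in 7. The miR156 call is lost without any 1 of the species (limma adjusted p = 0.22 without avocado, 0.70 without macadamia and 0.21 without mango), and so is that of miR157 (0.055, 0.19 and 0.21). miR171 was lower in 2 of 3 species, and its log2 ratios spread more between species than those of all but 2 of the 13 families, miR393 and miR398. limma estimated 1 common spread for all 13 families, so the p of miR171 does not rest on its own spread. Without avocado the estimate was -2.67 (-4.63 to -0.70, limma adjusted p = 0.084), and over all settings the adjusted p ran from 0.084 to 0.75.

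With distinct sequences in place of families, 23 of them past 10 RPM in every species, the limma estimate was -1.003 for the Arabidopsis sequence (-2.80 to 0.79, adjusted p = 0.56) and -1.88 for the rice sequence (-3.67 to -0.080, adjusted p = 0.16). Neither passed the correction, and each was lower in 2 of 3 species.

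Families of vegetative phase change and of the shoot meristem were set beside miR171 in each species. Of the age pathway families, miR156 and miR157, which hold back SPL transcripts in young shoots, were called lower in mature avocado and miR172, which targets AP2-like transcripts, was called higher, beside 53.3% of all families past the filter called lower and 20% called higher. Of the 4 meristem and leaf families past the filter, 3 were called lower in avocado (miR164, miR166 and miR396) and 0 higher, with a list median of -1.42 close to the -1.39 of all families. The age pathway median was -4.72. Relative to the median of all families, only 2 of the 7 families in avocado were at least 2-fold lower (miR156 and miR157), and 2 were higher (miR172 and miR394). miR394, which acts from the outer layer of the Arabidopsis shoot meristem on the F-box gene LCR, had an avocado log2 ratio of -0.33. miR172 and miR171 were thus the families of this set past the filter at higher RPM in mature avocado, with log2 ratios of 2.01 and 1.001.

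In macadamia 4 of the 7 were called lower, miR156, miR157, miR166 and miR394, and 0 were called higher, beside 33.3% and 11.1% of all families. In mango 3 were called lower, miR157, miR164 and miR394, and 1 higher, miR166, beside 37.5% and 31.2%, so the share called lower was near that of all families. The median log2 ratio of the age pathway families was -2.81 in macadamia and -0.55 in mango, and that of the meristem and leaf families -1.02 and -0.94. The miR171 values of -2.97 in macadamia and -2.37 in mango lay below both medians of the same species. The age pathway median includes miR172, which had log2 ratios of 0.64 and 0.88 in these species. In mango miR157 (-3.37) and miR394 (-2.47) were lower than miR171, and in macadamia no family of the set was. miR319, which targets TCP transcripts, did not reach 10 RPM in any library. These calls rest on 1 library per species and age. By qRT-PCR on replicate pools, the paper found no significant change with age in miR164, miR394 or miR396. There miR156 was lower in mature trees of each species, and miR172 was significantly higher only in avocado.

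The families whose levels over the 6 libraries were most like those of miR171 were miR394, miR390 and miR393, with Pearson r of 0.94, 0.91 and 0.48 on log2(RPM + 1). After miR393, miR172 and miR167 followed closely, at 0.47 and 0.45. The 6 points share 3 species and differ in depth, so r is a description of these libraries. miR390 guides the production of tasiRNAs from TAS3, and miR393 targets the TIR1 family of auxin receptors. By the root mean square difference of the 3 log2 ratios the same families were nearest, miR394 at 1.05, miR393 at 1.57 and miR390 at 1.65.

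Against miR394 and miR390, counted in the same libraries, miR171 was higher in mature avocado. In mature macadamia it was lower against miR394 alone. There were 0.569 miR171 reads for each miR394 read in juvenile avocado and 1.43 in mature avocado, 2.52 times as many (2.42 to 2.62). Per miR390 read there were 1.83 and 13.0 miR171 reads, 7.11 times as many (6.62 to 7.65). In macadamia miR171 reads per miR394 read moved from 0.303 to 0.126, 2.40 times fewer (1.79 to 3.28), while those per miR390 read were 2.52 and 2.41, with an interval of the ratio from 0.567 to 1.66. In mango the miR171 reads per miR394 read were 0.323 and 0.343 (ratio 0.851 to 1.32) and per miR390 read 3.88 and 2.88 (0.496 to 1.11). The mango and macadamia intervals with miR390 are wide, as miR390 had only 67 and 68 reads in mango and 22 in mature macadamia.

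**Figure D4:**
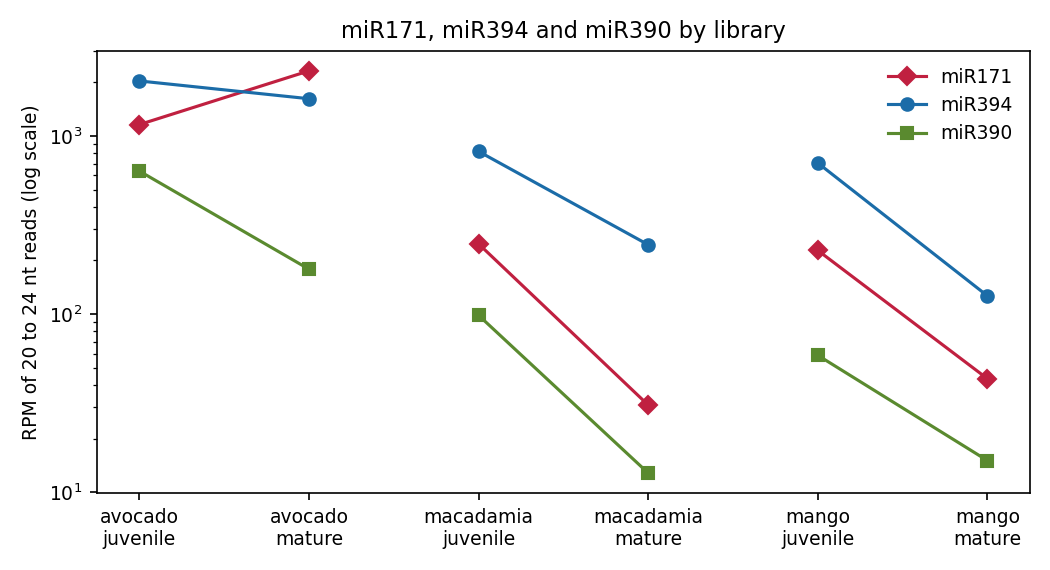
RPM of miR171, miR394 and miR390 in the 6 libraries on a log axis, with lines joining the ages of a species. miR171 stood above miR394 in mature avocado (2319 against 1618 RPM) and lay between miR394 and miR390 in the other 5 libraries.

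miR393, the third of these families, shared the direction of miR171 in every species. In avocado it went from 15.8 RPM in juvenile to 67.3 RPM in mature leaves. The macadamia libraries had 41.7 RPM (juvenile) and 25.0 RPM (mature), and the mango libraries 74.5 and 5.76 RPM. miR393 stood below miR171 in every library, so its ratios rest on fewer reads, and no interval was computed for them. Its log2 ratios of 2.02, -0.71 and -3.48 compare with 1.001, -2.97 and -2.37 for miR171. Of the 12 other families tested across species, miR393 was the only one higher in mature avocado and lower in both other species on the RPM scale. Relative to the family medians miR394 had the same pattern, with log2 ratios of 1.06, -1.20 and -2.42. On that scale the values of miR393 were 3.41, -0.18 and -3.43, so in macadamia miR393 lay near the family median.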

How the data were processed

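The authors trimmed adapters with Trim Galore, filtered out rRNA reads with BBduk and quantified miRNAs with SCRAM, using miRBase mature sequences of Arabidopsis and rice (the sources used here give no versions). The deposited RPM values are scaled to 20 to 24 nt reads and given to 3 decimals for 50 Arabidopsis and 73 rice entries. Reads that differ from these references are not counted, and whether reads of one miR171 sequence were placed in the other was not tested. Entries of a family with identical values were counted once. The more abundant arm and entries without a named arm were added up to a family value. Depth was the smallest number of reads that makes every value whole within the rounding. Sequences shared by several entries came out whole at the same depth as those with 1 entry. The floor of 3 reads lay between 0.400 and 2.63 RPM.

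Log2 ratios used a pseudocount of 1 RPM, which understates the change of low values. Families or sequences with at least 10 RPM in 1 library of a species passed the filter. Those past it were called when they were at least 2-fold higher or lower in mature leaves. limma 3.58.1 (R 4.3.3) tested the age effect with species as a block and Benjamini-Hochberg adjustment at 0.05. Python 3.11.15 with scipy 1.17.1 gave the intervals, and the programs were tested on simulated data. The text names both miR171 sequences, a list of 9 phase change and meristem families (8 listed in the values) and the 3 families most like miR171. miR396 and miR393, where singled out, were chosen after their values were seen. The members and lists were chosen with earlier results of these data known. The planned edgeR and DESeq2 fits were not run. The table is deposited as RPM, and the recovered reads served only for intervals and shares.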

Additional observations from a re-analysis of the deposited data

Results flagged for a closer look

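miR171 went in opposite directions in single pairs of libraries, and with 1 pair per species the differences between species were not tested. Its avocado log2 ratio of mature over juvenile leaves exceeded that of macadamia by 3.97 and that of mango by 3.37. The same gaps were 4.41 and 2.10 for the Arabidopsis sequence, and 3.18 and 4.97 for the rice sequence. The larger gap was thus with macadamia for one sequence and with mango for the other.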

How the results depend on the processing

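The direction of the miR171 family was the same in each species under the 5 alternatives that could change its value. Adding both arms could not, since only one is listed. With each species rescaled to its median family, the log2 ratio was 2.39 in avocado and -2.43 in macadamia. Scaled to the listed miRNA reads in place of all 20 to 24 nt reads it was 2.08 in avocado and -3.49 in mango. The most abundant sequence alone, the Arabidopsis one by 2026 against 2002 RPM summed over the libraries, gave 1.17 in avocado and -0.94 in mango. With a pseudocount of 5 RPM the avocado log2 ratio was 0.998, just under 2-fold. Counting each entry separately moved the share of the Arabidopsis sequence to 25.3% (juvenile) and 29.8% (mature) for avocado, 50.9% and 36.0% for macadamia, and 14.6% and 63.2% for mango. At 1.5-fold 2 miR171 sequences were higher in avocado and 2 lower in mango, and at 4-fold 0 were higher in avocado. Of the phase change and meristem families, at 1.5-fold 1 was higher in macadamia and 2 in mango, and at 4-fold 2 were lower in avocado, 2 lower in macadamia and 0 higher in mango. After rescaling 2 were higher and 2 lower in avocado, and 1 was higher in macadamia. The shared age effect of miR171 was not called by limma in any setting. Its log2 fold change was -0.78 after rescaling, -0.68 without macadamia and -0.98 without mango. No paired analysis by replicate number was possible because each group has 1 library, and without the species block the adjusted p was 0.66. The 53 reads of miR171 in mature macadamia limit the precision there.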
